A study of Rattus norvegicus with 18 samples.

Results

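The comparison set medullary thyroid carcinomas of 6 rats homozygous for mutant Cdkn1b at 9 months of age against those of 6 rats heterozygous for it at 18 months. It used 12 of the 18 tumours in the series, taken by their labels. The other 6 were carcinomas of heterozygous rats at 9 months, which have the age of the first group and the genotype of the second. They entered no test here, and their values are given beside the others. All animals had the strain background Sprague–Dawley white eye/Wistar–Kyoto and were untreated, and 1 tumour per animal was hybridised to 1 Affymetrix rat gene array. Genotype and age changed together between the groups compared, so their parts in any difference cannot be told apart. Sex, litter and array date are not in the labels, nor how tumour was separated from the gland around it. No normal thyroid was among the samples.

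Medullary thyroid carcinoma arises from C cells, the neuroendocrine cells of the thyroid that secrete calcitonin. Cdkn1b encodes p27Kip1, which inhibits cyclin-dependent kinases and holds cells in the G1 phase. Rats with a recessive germline mutation of this gene develop several endocrine tumours, a syndrome called MENX, and the mutation is carried by every cell of the animal and not by the tumour alone. A cell that secretes peptide hormone passes it through the endoplasmic reticulum (ER), where the Sec61 channel admits the chain, the chaperone BiP and the disulfide isomerases fold it, and COPII vesicles carry it on to the Golgi. When unfolded protein builds up there, the sensors Ire1, Perk and Atf6 raise the transcription of chaperone genes, which is the unfolded protein response.

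The deposited values are log2 expression, on which a difference of 1 is a doubling. Differences are homozygous at 9 months minus heterozygous at 18 months, given ± SE (n = 6 each) from limma, and a gene was called higher or lower at a Benjamini-Hochberg adjusted p under 0.05. Array medians lay between 7.55 and 7.65, and the number of arrays limits the precision. Calca, the gene of calcitonin, measured 13.76, 13.92 and 14.02 (lowest, median, highest) in homozygous tumours, against 14.01, 14.07 and 14.12 in heterozygous tumours at 18 months. This C cell transcript was thus abundant in each specimen. With no normal thyroid to compare, it cannot tell carcinoma from gland that holds C cells. Thyroglobulin (Tg), the product of follicular cells, measured 14.18, 14.32 and 14.34 in homozygous tumours, against 11.08, 13.98 and 14.34 in heterozygous tumours at 18 months. Heterozygous replicate 1 at 18 months was far below the rest for Tg. The highest value of any probe set on an array was 14.43 to 14.49 over the 18 arrays. In bulk specimens such as these, fewer cells of a type and less RNA per cell cannot be told apart. Cdkn1b itself measured 10.96, 11.06 and 11.25 in homozygous tumours, against 10.65, 10.96 and 11.10 in heterozygous tumours at 18 months, with overlapping groups and a difference of 0.16 ± 0.08 (limma adjusted p = 0.178). The array reads the level of the transcript and not the mutation in it, so it does not check the genotype.

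On the first principal component, 3 arrays lay closer to the mean of the other group than to that of their own. On this component, which held 63.7% of the variance, 5 homozygous tumours lay between -32.3 and -23.0 and 4 heterozygous tumours at 18 months between 22.7 and 60.1. Homozygous replicate 3 was at 11.3, heterozygous replicate 4 at -23.3 and heterozygous replicate 5 at -9.25. The mean over 13 follicular cell genes followed the same split. It was 10.42 in homozygous replicate 3 and 11.24 to 11.43 in the other 5 homozygous tumours, against 11.24 and 10.97 in heterozygous replicates 4 and 5 and 7.36 to 9.52 in the other 4. It was 11.45 to 11.58 in heterozygous tumours at 9 months. Heterozygous replicate 6 at 18 months stood apart in blood and immune lists, with a high mean over 5 red blood cell genes, 10.59, against at most 8.93 in the homozygous tumours and at most 8.76 in the other heterozygous tumours at 18 months. Its mean over the T and natural killer cell list was 8.39, against at most 7.57 in the homozygous tumours and at most 7.41 in the other heterozygous tumours at 18 months. Its macrophage list mean was 9.03, against at most 8.49 in the homozygous tumours and at most 8.43 in those other heterozygous tumours.

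**Figure D1:**
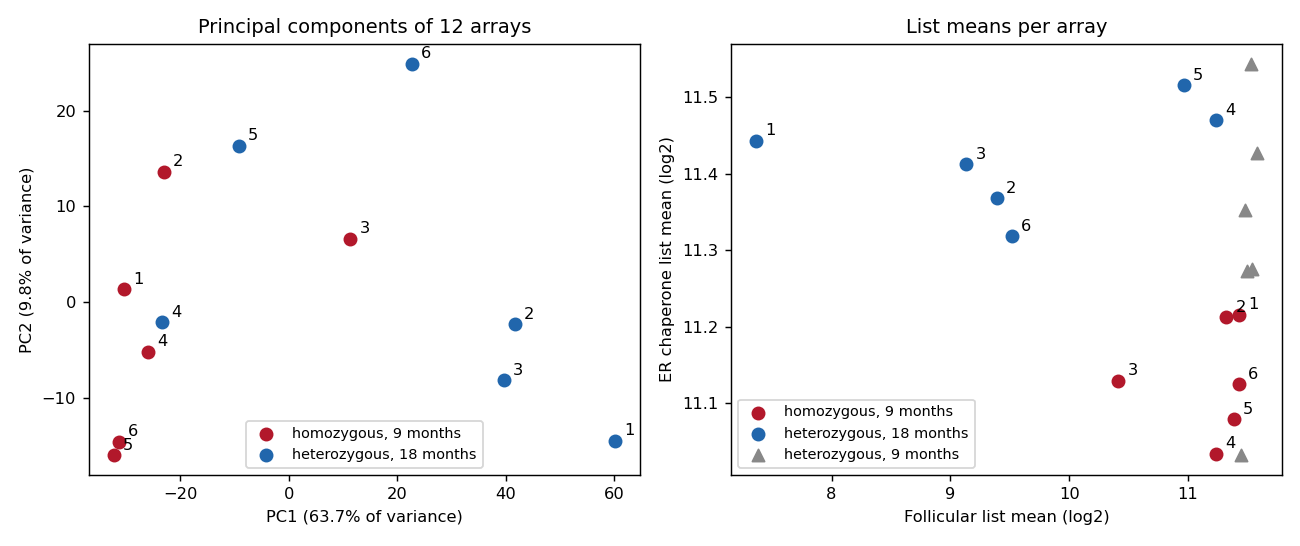
Left, the first and second principal components of the 12 arrays over 11370 genes (63.7% and 9.84% of the variance), each point an array labelled with its replicate number. Right, the mean log2 value of 13 follicular cell genes (x axis) and of 26 ER chaperone genes (y axis) in all 18 arrays, where homozygous tumours lie at 11.03 to 11.22 on the y axis and heterozygous tumours at 18 months at 11.32 to 11.52.

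Of 11370 genes tested, 708 (6.23%) differed at an adjusted p under 0.05, 419 (3.69%) higher and 289 (2.54%) lower in homozygous tumours. The median difference of the called genes was 0.523 in size, against a median difference of 0 over all genes tested. 103 genes (0.906%) were called with a difference of at least 1 in size, 82 higher and 21 lower. The calls stood close to the threshold: their adjusted p ranged over 0.0348 to 0.0499, while 4022 genes (35.4%) had an unadjusted p under 0.05. For 256 genes (2.25%) the 6 values of one group lay wholly above the 6 of the other, 143 (1.26%) higher and 113 (0.994%) lower in homozygous tumours, and 205 of these were called.

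The number of calls rested on single arrays. Leaving out homozygous replicate 1, 4, 5 or 6, or heterozygous replicate 1, 2, 3 or 6 at 18 months, left 0 calls by limma, with 3139 to 3641 genes at an unadjusted p under 0.05. Without homozygous replicate 2 there were 4 calls. Without 1 of the 3 arrays that lay toward the other group, the count grew to 2908 (homozygous replicate 3), 3572 (heterozygous replicate 4) or 2362 (heterozygous replicate 5), and without all 3 it was 5185. Those 3 were picked on these same values for lying toward the other group, so a higher count without them follows from the choice. The sizes of the differences moved far less. All 708 genes kept their direction in each of the 12 fits, and leaving out 1 array moved the difference of a called gene by a factor of at most 1.31. Every call named below is therefore one that leaving out any of 9 of the 12 arrays ends or, for 4 genes, any of 8; the differences themselves are given with their range over the 12 fits where they matter.

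**Figure D2:**
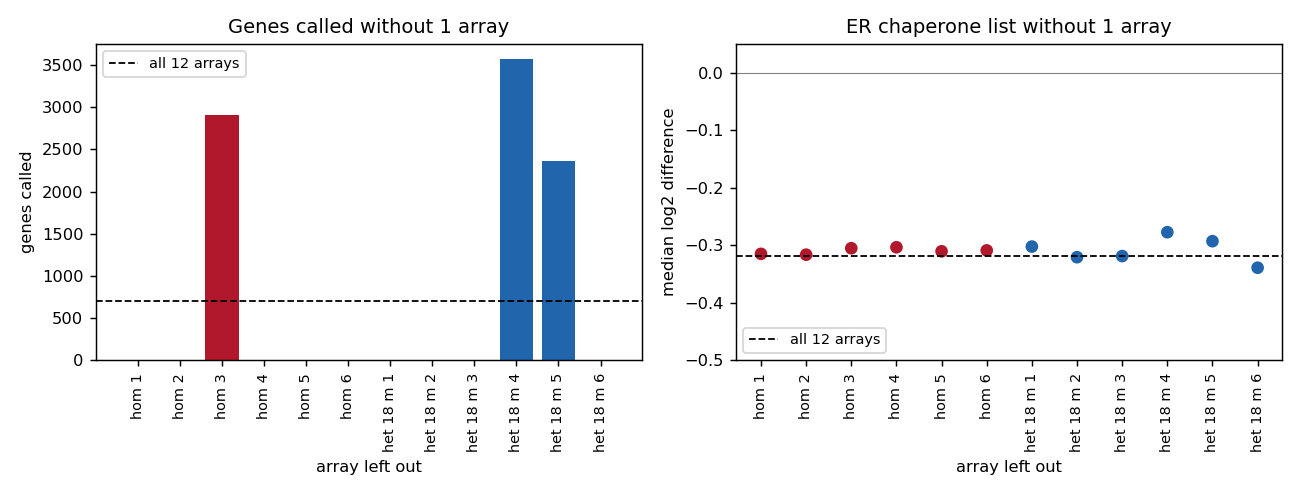
Left, the number of genes called when the array named on the x axis is left out, with the 708 calls of all 12 arrays as a dashed line. Right, the median log2 difference of the 26 ER chaperone genes in the same fits, which stays between -0.34 and -0.28 while the number of calls runs over 0 to 3572.

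A group of genes of protein folding in the ER fell in homozygous tumours. Of 26 tested genes of the ER chaperone and unfolded protein response list, 9 (34.6%) were called lower and 0 higher, where 2.54% of all genes were called lower. The list's median difference was -0.32 and 24 of its 26 differences were below 0. This list was chosen with earlier results of these data known, so its counts are descriptions too. For 7 of the 26, all homozygous values lay below all values of heterozygous tumours at 18 months, where 0.994% of all genes did so. The mean over the 26 genes was 11.03 to 11.22 in homozygous tumours, against 11.32 to 11.52 in heterozygous tumours at 18 months, so that the groups did not overlap. Heterozygous tumours at 9 months spanned 11.03 to 11.54 and covered both.

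Among chaperones, Hyou1, an ER member of the Hsp70 family (probe set 10909482), measured 10.34, 10.51 and 10.76 in homozygous tumours, against 11.12, 11.18 and 11.54 in heterozygous tumours at 18 months. Every homozygous tumour lay below every heterozygous tumour at 18 months, and the difference was -0.73 ± 0.10 (limma adjusted p = 0.0348), ranging over -0.77 to -0.67 when 1 array was left out. Heterozygous tumours at 9 months had 10.29, 10.72 and 11.07. Hspa5, which encodes BiP (probe set 10835692), measured 13.24, 13.37 and 13.43 in homozygous tumours, against 13.56, 13.64 and 13.74 in heterozygous tumours at 18 months. The groups again did not overlap, with a smaller difference of -0.30 ± 0.05. In heterozygous tumours at 9 months Hspa5 had 13.16, 13.56 and 13.77, with 3 tumours below the range of the older heterozygous tumours, 2 within it and 1 above it. The cofactors of BiP were also lower, Dnajb9 (-0.77 ± 0.15) and Dnajc3 (-0.34 ± 0.08); the groups overlapped for Dnajb9 and not for Dnajc3. Manf, an ER-resident factor that cells secrete under ER stress, measured 9.90, 10.17 and 10.44 in homozygous tumours, against 10.41, 10.78 and 10.99 in heterozygous tumours at 18 months, a difference of -0.59 ± 0.11 with overlapping groups.

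The disulfide isomerases Pdia4 and Pdia6 fell by differences of -0.35 and -0.53, each with no overlap. Sel1l, the adaptor of the ubiquitin ligase that clears misfolded protein from the ER, measured 9.78, 9.86 and 10.15 in homozygous tumours, against 10.28, 10.38 and 10.59 in heterozygous tumours at 18 months. Here too the groups stood apart (-0.47 ± 0.08). Sec61a1, the pore of the Sec61 channel, measured 11.49, 11.61 and 11.72 in homozygous tumours, against 11.75, 12.03 and 12.08 in heterozygous tumours at 18 months, with no overlap and a difference of -0.39 ± 0.07. The other 17 genes of the list were not called. Among them were the chaperones Canx (-0.02), Calr (-0.05) and Hsp90b1 (-0.12), the isomerase P4hb (0.03), the transcription factor Xbp1 (-0.11) and Herpud1 (0.07), a part of the clearance machinery.

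**Figure D3:**
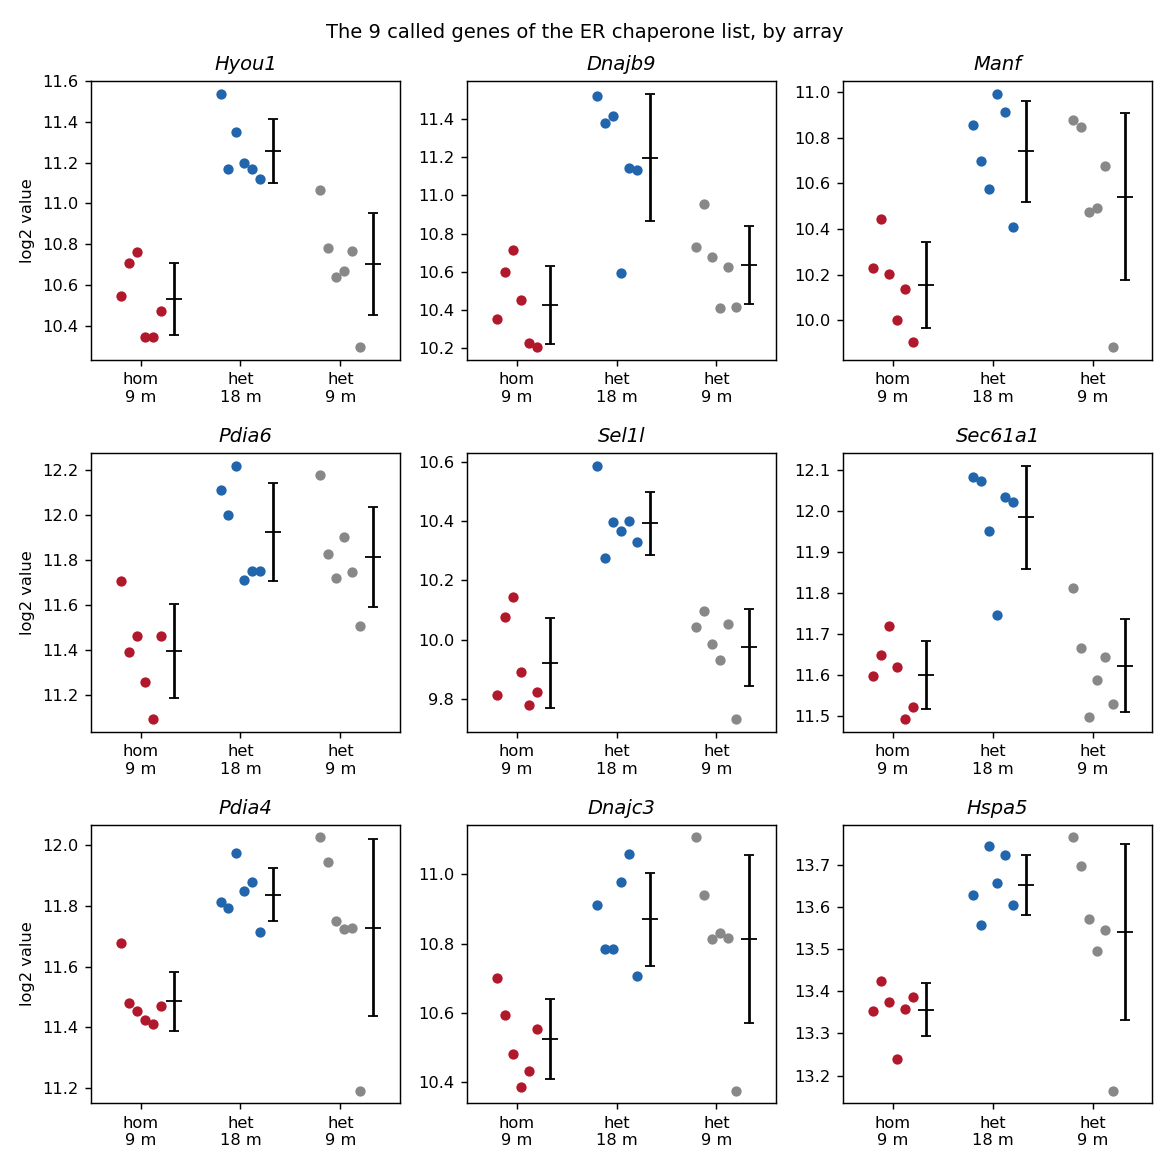
Log2 values of the 9 called genes of the ER chaperone list, each point a tumour, with the mean and SD of each group as a cross and bar (n = 6 each). Homozygous tumours at 9 months (hom 9 m) lie below heterozygous tumours at 18 months (het 18 m) without overlap for 7 genes, all but Dnajb9 and Manf, and 1 heterozygous tumour at 9 months (het 9 m) is low for all 9.

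The position of heterozygous tumours at 9 months differed from gene to gene. Their medians for Sel1l (10.02) and Sec61a1 (11.62) were closer to those of homozygous tumours, 9.86 and 11.61, than to those of heterozygous tumours at 18 months, 10.38 and 12.03. For Pdia4 (11.74), Pdia6 (11.79) and Dnajc3 (10.82) they were closer to the medians of the older heterozygous tumours, 11.83, 11.88 and 10.85, than to those of homozygous tumours, 11.46, 11.43 and 10.52. Replicate 6 of the heterozygous tumours at 9 months was the lowest of its group in the mean over the list, at 11.03. Heterozygous replicates 4 and 5 at 18 months, with follicular means like those of homozygous tumours, had the highest means over the ER list of the 12 arrays, 11.47 and 11.52. Without both of them 13 genes of the list were called lower and 1 higher, and the list's median was -0.24 in place of -0.32. Without homozygous replicate 3 as well the counts were again 13 and 1, at a median of -0.22. The arrays left out were picked on the same values, so these counts are descriptions. The part of follicular content in the ER differences was not tested.

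The promoters of 3 called genes are shown because they hold the ER stress response element, a motif through which Atf6 and Xbp1 are known to act on chaperone genes. Sequences are from RefSeq (GRCr8), 250 bases before to 50 after the gene's start, and 22 of the 30 list genes had an entry. Capitals mark the motif. In Hspa5 (chr3:38452766-38453065, plus strand) and Dnajc3 (chr15:102432417-102432716, plus strand) it is the ERSE form, CCAAT and CCACG with any 9 bases between, centred at positions -34 and -124 counted from the start. In Hyou1 (chr8:53602632-53602931, plus strand) it is the ERSE-II form, ATTGG and CCACG with any 1 base between, found 2 times and read from the other strand, the first centred at position -183.
Hspa5: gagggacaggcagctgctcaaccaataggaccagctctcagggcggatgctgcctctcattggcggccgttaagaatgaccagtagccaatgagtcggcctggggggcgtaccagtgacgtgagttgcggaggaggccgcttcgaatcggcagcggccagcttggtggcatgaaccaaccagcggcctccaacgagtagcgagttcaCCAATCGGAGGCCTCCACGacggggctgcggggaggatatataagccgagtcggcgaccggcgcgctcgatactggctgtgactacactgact
Dnajc3: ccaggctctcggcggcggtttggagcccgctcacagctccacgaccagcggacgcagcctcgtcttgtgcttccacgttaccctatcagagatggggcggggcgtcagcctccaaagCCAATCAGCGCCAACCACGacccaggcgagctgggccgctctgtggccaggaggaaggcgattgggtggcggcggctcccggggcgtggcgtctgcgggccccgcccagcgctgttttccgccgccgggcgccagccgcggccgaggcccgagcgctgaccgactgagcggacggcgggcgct
Hyou1: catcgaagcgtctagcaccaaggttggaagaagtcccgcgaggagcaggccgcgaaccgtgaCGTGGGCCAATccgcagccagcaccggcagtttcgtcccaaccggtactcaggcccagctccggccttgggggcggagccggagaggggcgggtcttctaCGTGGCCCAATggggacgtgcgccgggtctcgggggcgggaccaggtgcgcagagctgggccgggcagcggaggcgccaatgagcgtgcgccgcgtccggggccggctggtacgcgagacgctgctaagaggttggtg

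Both strands of 33469 promoters were searched for exact matches. ERSE was found in 22 of them (0.0657%) and in those of 8 of the 22 list genes (36.4%). ERSE-II was found in 17 (0.0508%) and in those of 3 of the 22 (13.6%), and 0 promoters held both. The list was drawn up of genes known for this response, so a high share among them is a description. Of 11 list genes with either form 3 were called lower, Hspa5, Dnajc3 and Hyou1, while Calr, Canx, Hsp90b1, Xbp1, Creld2, Dnajb11 and Herpud1 hold one and were not called, and Ero1b was not tested. Over the whole ER list 34.6% of the tested genes were called lower, against 2.54% of all genes. Of the 9 called list genes 6 had a promoter entry to search. Whether the motif went with the falls was not tested.

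Further lists along the secretory route were drawn up after the values had been seen, so their counts are descriptions. The lists share some members with the ER list. Of 33 tested genes of the translocon, signal peptidase and oligosaccharyltransferase 10 were called lower, where 2.54% of all genes were, and 0 higher, with a median difference of -0.26. Ssr4, a subunit of the translocon-associated complex, measured 11.37, 11.50 and 11.60 in homozygous tumours, against 11.66, 12.21 and 12.61 in heterozygous tumours at 18 months, with no overlap and a difference of -0.66 ± 0.15. The oligosaccharyltransferase attaches sugar chains to asparagine residues of the entering protein, and its subunits Ddost (-0.47 ± 0.11), Rpn2 (-0.39 ± 0.09) and Ostc (-0.71 ± 0.16) were each lower. The groups did not overlap for Ddost and Rpn2 and overlapped for Ostc. For Ssr4, Ddost, Rpn2 and Ostc heterozygous replicates 4 and 5 were the lowest of the tumours at 18 months. These 2 had the highest follicular list means of that group. The part of follicular content in these differences was not tested.

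Of 19 disulfide isomerases and oxidases 8 were called lower, against 2.54% of all genes, and 0 higher, with a median of -0.35. Pdia5 measured 7.71, 7.90 and 8.22 in homozygous tumours, against 8.40, 8.58 and 8.70 in heterozygous tumours at 18 months, and the groups stood apart (-0.63 ± 0.10). Erp29, a thioredoxin-fold protein of the ER without isomerase activity, had the largest fall of the list, -0.90 ± 0.19, also without overlap. Selenom, an ER selenoprotein, measured 9.42, 9.83 and 10.28 in homozygous tumours, against 9.97, 10.83 and 11.01 in heterozygous tumours at 18 months, with overlapping groups. For Erp29 and Selenom heterozygous replicates 4 and 5 were the lowest at 18 months, and homozygous replicate 3 was the highest of its group. For Pdia5 heterozygous replicate 6 was the lowest at 18 months. The part of follicular content in these differences was not tested.

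Of 33 genes of the COPII coat, its cargo receptors and its tethers 10 were called lower, against 2.54% of all genes, and 0 higher, with a median of -0.25. Sec24d, the coat subunit that binds cargo, measured 9.86, 9.95 and 10.10 in homozygous tumours, against 10.28, 10.44 and 10.62 in heterozygous tumours at 18 months. Its groups did not overlap, and the difference was -0.49 ± 0.07, ranging over -0.53 to -0.46 without 1 array. Surf4, a cargo receptor, measured 11.20, 11.27 and 11.36 in homozygous tumours, against 11.57, 11.62 and 11.71 in heterozygous tumours at 18 months. The gap between them made a difference of -0.35 ± 0.05. Uso1, which tethers vesicles to the Golgi, was lower (-0.54 ± 0.09) without overlap, and Lman1, a lectin that carries glycoproteins (-0.39 ± 0.09) with overlap. For Sec24d, Surf4, Uso1 and Lman1 heterozygous replicate 4 was the lowest at 18 months, while replicate 5 lay within the range of the others. Of 23 genes of the COPI coat, which returns proteins to the ER, 2 were called lower and 0 higher (median -0.23).

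Regulators of the response were named after their values were seen. Ficd, the enzyme that modifies BiP with AMP, measured 8.24, 8.36 and 8.82 in homozygous tumours, against 8.89, 9.16 and 9.26 in heterozygous tumours at 18 months, with no overlap and a difference of -0.68 ± 0.11. Heterozygous tumours at 9 months lay between, at 8.52, 8.76 and 8.98. Eif2ak3, which encodes the sensor Perk, was lower (-0.23 ± 0.06), and Atf6b, a relative of Atf6 (-0.42 ± 0.08), in both without overlap. Creb3l1, an ER-bound transcription factor of secretory cells, measured 7.92, 8.15 and 8.32 in homozygous tumours, against 8.52, 8.81 and 9.45 in heterozygous tumours at 18 months. The difference was -0.76 ± 0.16 without overlap, and heterozygous tumours at 9 months, at 7.95, 8.09 and 8.16, lay with the homozygous ones.

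Of 23 genes of the amino acid stress response, which Atf4 drives, 3 were called lower and 1 higher, with a median of -0.34. Among all genes 2.54% were called lower and 3.69% higher. Aldh18a1 and Pycr1, consecutive enzymes of proline synthesis, fell together. Aldh18a1 measured 9.09, 9.21 and 9.31 in homozygous tumours, against 9.49, 9.81 and 10.18 in heterozygous tumours at 18 months, a difference of -0.61 ± 0.13. Pycr1 measured 7.12, 7.33 and 7.43 in homozygous tumours, against 7.54, 7.95 and 8.79 in heterozygous tumours at 18 months, a difference of -0.72 ± 0.19. Neither gene's groups overlapped. Asns, asparagine synthetase, was lower (-0.48 ± 0.13) with overlap, and Shmt2, the mitochondrial serine hydroxymethyltransferase, was higher by 0.72 ± 0.19.

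**Figure D4:**
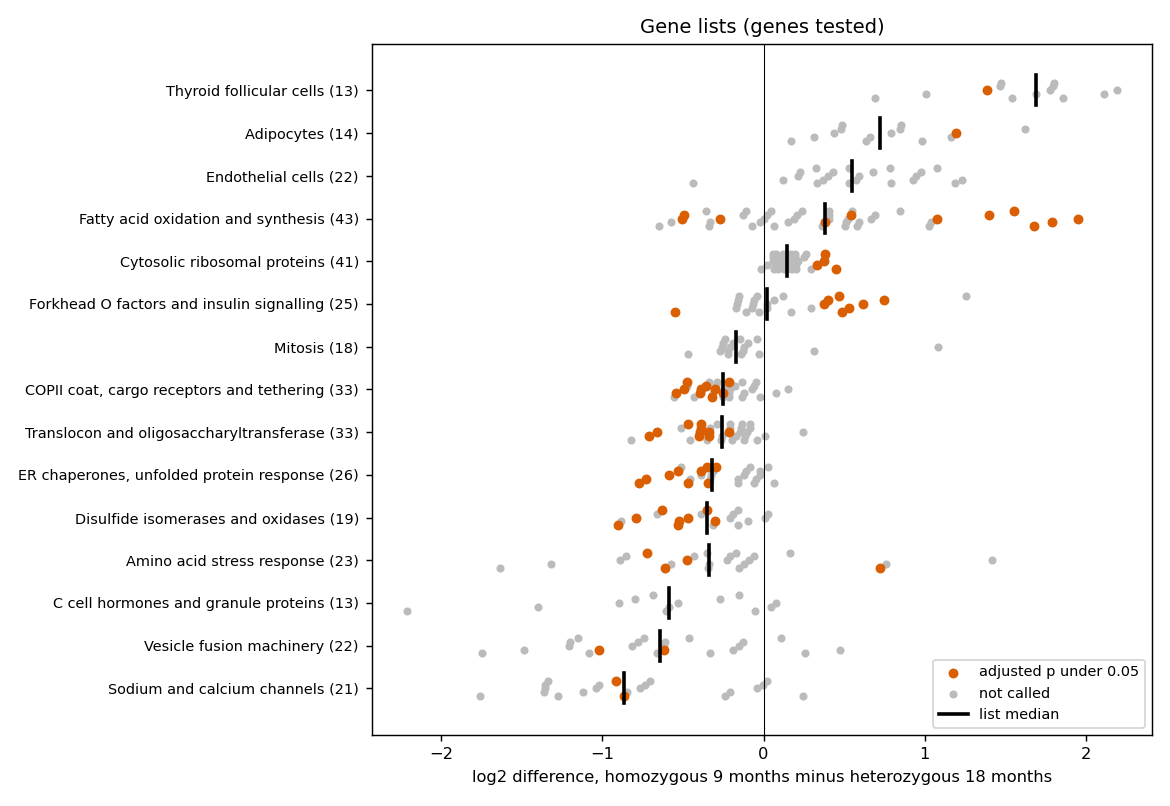
Log2 differences (homozygous 9 months minus heterozygous 18 months, x axis) of the tested genes of 15 lists, with the number tested in brackets. Each point is a gene, orange where its adjusted p was under 0.05, and the black bar is the list's median: 9 of 26 ER chaperone genes are called, all below 0, while 12 of 13 follicular genes are not called at a median of 1.69.

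Among receptors, Gfra1 rose. It encodes the co-receptor through which GDNF activates Ret, the receptor tyrosine kinase whose mutation drives human medullary thyroid carcinoma. Gfra1 (probe set 10731075) measured 9.95, 10.69 and 10.82 in homozygous tumours, against 7.34, 8.72 and 9.85 in heterozygous tumours at 18 months. Every homozygous tumour was above every heterozygous tumour at 18 months, by 1.84 ± 0.36 (limma adjusted p = 0.0373), and heterozygous tumours at 9 months had 9.78, 10.07 and 10.38. At 18 months Gfra1 was highest in heterozygous replicates 4 and 5 (9.58 and 9.85), which also had the highest follicular list means of that group. Homozygous replicate 3 was lowest of its group in both. The part of follicular content in the Gfra1 difference was not tested. Ret itself measured 11.03, 11.14 and 11.36 in homozygous tumours, against 10.80, 11.10 and 11.48 in heterozygous tumours at 18 months, a difference of 0.03 ± 0.11 (limma adjusted p = 0.868) with homozygous values that all lay inside the heterozygous range. Artn, which encodes the ligand artemin, was lower (-0.26 ± 0.07). The other 6 tested genes of the Ret list were not called, where 3.69% of all genes were called higher and 2.54% lower.

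Of 33 receptor tyrosine kinases and growth factors 1 was called higher and 1 lower, where 3.69% of all genes were called higher and 2.54% lower. Erbb3, the neuregulin receptor with little kinase activity of its own, measured 8.60, 9.36 and 9.71 in homozygous tumours, against 6.39, 7.95 and 8.59 in heterozygous tumours at 18 months. The groups did not overlap and the difference was 1.55 ± 0.38, but homozygous replicate 3, at 8.60, nearly touched the highest heterozygous value. This tumour also had the lowest follicular list mean of its group, and the part of follicular content in the Erbb3 difference was not tested. Ephb2, a receptor for ephrin-B ligands, was lower (-1.21 ± 0.31) with overlap. Among feedback inhibitors of MAP kinase signalling and related genes, Phlda1 was higher by 0.88 ± 0.20 and Spry4 lower (-0.52 ± 0.14), of 15 tested. Of 26 Wnt and Notch genes, Dkk3, a secreted Dickkopf-family protein, was lower (-0.32 ± 0.09) and the Notch ligand Jag2 (-0.45 ± 0.11).

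In the G1 list, to which p27 belongs, 1 of 17 genes was called higher and 2 lower. Over all genes the shares were 3.69% and 2.54%. Cdk2, the kinase that p27 inhibits together with its cyclins, measured 8.69, 9.13 and 9.27 in homozygous tumours, against 7.57, 8.01 and 8.78 in heterozygous tumours at 18 months, with overlap of homozygous replicate 3 and 1 heterozygous tumour. The difference was 0.98 ± 0.22, and heterozygous tumours at 9 months, at 8.80, 8.97 and 9.20, lay with the homozygous ones. Homozygous replicate 3, the lowest of its group for Cdk2, also had its lowest follicular list mean. The part of follicular content in the Cdk2 difference was not tested. Ccnd2 (cyclin D2) measured 10.84, 11.29 and 11.58 in homozygous tumours, against 11.41, 12.42 and 12.93 in heterozygous tumours at 18 months, a difference of -1.04 ± 0.24 with overlap. Ccnd3 (cyclin D3) was lower (-0.37 ± 0.10). Of 22 DNA replication genes and 18 mitosis genes 0 were called by limma, with medians of -0.05 and -0.17. The smallest p in these lists belonged to Lig1 (DNA ligase I, 0.26 ± 0.08, adjusted p = 0.0611) and Aurkb (Aurora kinase B, 0.31 ± 0.13, adjusted p = 0.108). Of 17 p53 target genes Tp53inp1 was higher by 0.34 ± 0.07 and no other was called.

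The largest rise among called genes was that of Pla2g10, a secreted phospholipase (probe set 10740286), which measured 8.71, 9.94 and 10.16 in homozygous tumours, against 6.60, 7.06 and 9.03 in heterozygous tumours at 18 months, a difference of 2.21 ± 0.43. Only homozygous replicate 3 overlapped the heterozygous values, and heterozygous tumours at 9 months had 8.83, 9.75 and 9.82. Scd, the stearoyl-CoA desaturase, measured 8.04, 9.55 and 10.58 in homozygous tumours, against 6.89, 7.53 and 8.05 in heterozygous tumours at 18 months, a difference of 1.95 ± 0.38 with groups that barely overlapped. Its relative Scd2 went the other way, with 10.72, 10.89 and 11.32 in homozygous tumours, against 11.18, 11.34 and 11.84 in heterozygous tumours at 18 months.

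Acot1, a cytosolic acyl-CoA thioesterase, measured 8.12, 9.02 and 9.23 in homozygous tumours, against 5.79, 6.64 and 8.65 in heterozygous tumours at 18 months, and Pdk4, the kinase that shuts off pyruvate dehydrogenase, 10.62, 11.31 and 11.41 in homozygous tumours, against 8.15, 9.66 and 11.06 in heterozygous tumours at 18 months. Both overlapped through heterozygous tumours at the high end of a wide group. Acsm5, a mitochondrial medium-chain acyl-CoA synthetase, stood apart without overlap, by 1.60 ± 0.29. In a list of fatty acid oxidation and synthesis drawn up after the values had been seen, 8 of 43 tested genes were called higher and 3 lower, with a median of 0.38, where 3.69% of all genes were called higher and 2.54% lower. Besides those named, Ppargc1a (a coactivator of mitochondrial genes, 1.40 ± 0.37), Angptl4 (an inhibitor of lipoprotein lipase, 1.56 ± 0.42) and Acacb (acetyl-CoA carboxylase 2, 1.08 ± 0.25) were higher, and Acly (ATP citrate lyase, -0.50 ± 0.13) was lower. Of 14 adipocyte genes 14 had differences above 0 (median 0.72) and 1 was called, Pck1, which makes phosphoenolpyruvate (1.19 ± 0.32). The mean over the adipocyte genes was 8.35 to 9.48 in homozygous tumours, against 7.46 to 8.95 in heterozygous tumours at 18 months. Pla2g10, Scd, Acot1, Acsm5, Acacb and Ppargc1a were lowest among homozygous tumours in replicate 3, with the lowest follicular list mean of its group. At 18 months they were highest in heterozygous replicates 4 and 5, with the highest follicular list means of theirs. Pdk4 and Angptl4 followed this for homozygous replicate 3 and heterozygous replicate 4 but not 5. The parts of adipocyte and follicular content in the lipid results were not tested.

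The other large rises were Kcnh7, a potassium channel subunit (2.00 ± 0.53), Kiaa0040 (1.77 ± 0.45), Abcg3l3 (1.69 ± 0.36), the GABA transporter Slc6a11 (1.64 ± 0.42), the adhesion receptor Adgrl3 (1.60 ± 0.43) and Smad9, a transcription factor of bone morphogenetic protein signalling (1.56 ± 0.42). Of these 6 only Abcg3l3 had groups that did not overlap. Homozygous replicate 3 was the lowest of its group, and set apart from it, for Kcnh7 (8.74), Adgrl3 (10.75) and Smad9 (10.24). The follicular list mean was lowest in the same homozygous tumour, and its part in these rises was not tested.

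**Figure D5:**
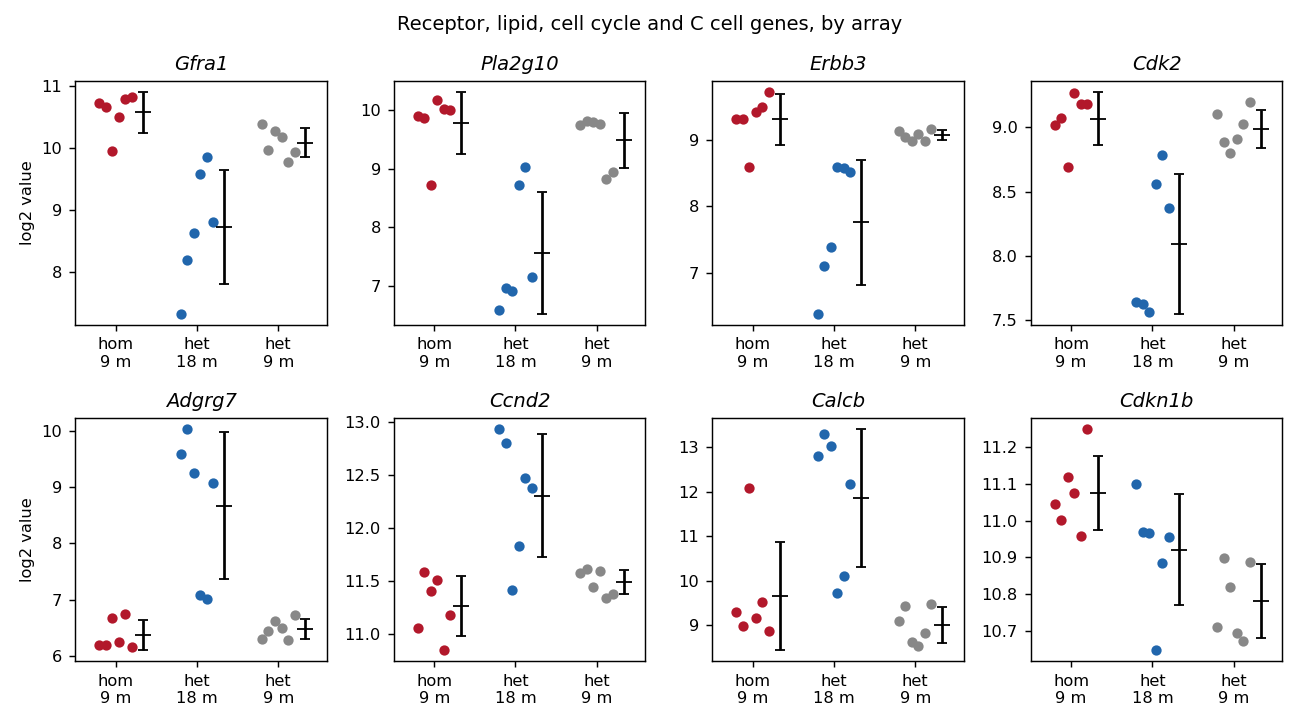
Log2 values of 8 genes of receptors, lipid use, the cell cycle and C cells, each point a tumour, with the mean and SD of each group (n = 6 each) for homozygous tumours at 9 months (hom 9 m) and heterozygous tumours at 18 months (het 18 m) and 9 months (het 9 m). Gfra1 and Adgrg7 separate the first 2 groups without overlap, and Calcb has 1 homozygous tumour at 12.10 beside 5 between 8.85 and 9.52.

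The largest fall among called genes was that of Adgrg7, an orphan adhesion receptor (probe set 10750755), which measured 6.17, 6.22 and 6.75 in homozygous tumours, against 7.02, 9.16 and 10.03 in heterozygous tumours at 18 months. The groups did not overlap and the difference was -2.30 ± 0.49, though heterozygous replicates 4 and 5 lay only just above the homozygous tumours. The next falls were Adgrb3, a receptor for complement-like synaptic proteins (-1.49 ± 0.40), the kainate receptor subunit Grik4 (-1.44 ± 0.39), the neuronal membrane protein Sez6l2 (-1.24 ± 0.32) and Abcc8, the sulfonylurea receptor of ATP-sensitive potassium channels (-1.22 ± 0.32). After them came Ephb2, the nicotinic receptor subunit Chrnb2 (-1.19 ± 0.30), the imprinted noncoding RNA Meg3 (-1.18 ± 0.32), Tmem59l (-1.15 ± 0.28), the potassium channel Kcnj6 (-1.08 ± 0.27), the circadian repressor Bhlhe41 (-1.08 ± 0.23) and Susd4 (-1.08 ± 0.29). All of these but Adgrg7 overlapped between the groups. A gene needed a mean of 6.32 over the 18 arrays to be tested. Adgrb3 had means of 6.24 in homozygous tumours and 6.11 in heterozygous tumours at 9 months. It thus passed only through heterozygous tumours at 18 months (7.73), and the homozygous mean of Adgrg7, 6.37, lay close to this level.

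The neuronal lists had medians below 0. Calls made up 9.52% of the sodium and calcium channel list, 9.09% of vesicle fusion and 20% of potassium channels. They made up 9.09% of synapse organisers and 0% of GABA genes, where 6.23% of all genes were called, 2.54% lower and 3.69% higher. Of 21 sodium and calcium channel genes 2 were called lower and 0 higher, at a median of -0.86: Cacna1a (-0.86 ± 0.19) and Cacna1c (-0.92 ± 0.24), pore subunits of P/Q-type and L-type calcium channels. Of 22 genes of vesicle fusion 2 were called lower and 0 higher, at a median of -0.64: Unc13a, which primes vesicles (-1.02 ± 0.24), and Syt7, a calcium sensor of release (-0.62 ± 0.14). Of 20 potassium channel genes 3 were called lower and 1 higher, the falls being Kcnj6, Kcnh2 (-0.85 ± 0.19) and Kcnmb2 (-0.86 ± 0.21). Among 11 synapse organisers Nlgn2, a neuroligin of inhibitory synapses, was the single call (-0.67 ± 0.18). For 10 GABA genes the median was -0.97 with 0 calls by limma, the smallest adjusted p being that of Abat, which breaks down GABA (-0.67 ± 0.22, adjusted p = 0.0644). The means over these lists were spread within groups: for sodium and calcium channels they were 7.86 to 8.99 in homozygous tumours, against 8.25 to 9.66 in heterozygous tumours at 18 months and 7.77 to 8.09 in those at 9 months. The highest of the homozygous means was that of replicate 3, the tumour with the lowest follicular list mean of its group, and the part of cell make-up in these differences was not tested.

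Of 13 tested hormone and granule genes of C cells 0 were called by limma, at a median of -0.59. With 6.23% of all genes called, 0 calls in so short a list says little about it. Their differences ran over -2.21 (Calcb) to 0.08 (Npy). Calcb, which encodes the second calcitonin gene-related peptide, measured 8.85, 9.22 and 12.10 in homozygous tumours, against 9.72, 12.49 and 13.31 in heterozygous tumours at 18 months. The difference of -2.21 ± 0.73 (limma adjusted p = 0.0641) went with a wide spread in both groups: homozygous replicate 3 was at 12.10, and heterozygous replicates 4 and 5 were the lowest of theirs. Calca differed by -0.16 ± 0.05 (adjusted p = 0.0713), and Chgb (chromogranin B) by -0.68 ± 0.20 (adjusted p = 0.0532). Chga (chromogranin A), which parathyroid cells also make, measured 12.34, 12.54 and 13.03 in homozygous tumours, against 12.25, 12.44 and 13.15 in heterozygous tumours at 18 months, a difference of 0.05 ± 0.16. The mean over the 13 genes was 11.02 in homozygous replicate 3 and 9.95 to 10.31 in the other homozygous tumours, against 10.23 and 10.58 in heterozygous replicates 4 and 5 and 10.82 to 11.43 in the other 4. It was thus highest in the homozygous tumour with the lowest follicular mean, and lowest in the heterozygous tumours at 18 months with the highest follicular means. Among the rest the order did not hold throughout: homozygous replicate 1 had the highest follicular mean of its group, 11.43, and a C cell mean of 10.31.

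Most of the large differences were not called, though the share called was above the 6.23% of all genes tested. Of 514 genes with a difference of at least 1 in size 103 were called, and of 16 with at least 2, 3 were called. Cbln4, a secreted synapse organiser, had 6.11, 6.60 and 9.97 in homozygous tumours, against 7.40, 11.30 and 12.21 in heterozygous tumours at 18 months, a difference of -2.94 ± 1.00 (limma adjusted p = 0.0675). Gabra3, a GABA-A receptor subunit, had 5.62, 5.86 and 6.53 in homozygous tumours, against 5.55, 8.99 and 11.25 in heterozygous tumours at 18 months, a difference of -2.53 ± 0.89 (adjusted p = 0.0733). In each of these genes heterozygous tumours at 18 months spread over most of the range of the whole comparison. Gabra3 had means of 5.94 in homozygous tumours and 5.74 in heterozygous tumours at 9 months. Both lay under the 6.32 needed for testing, which Gabra3 passed only through heterozygous tumours at 18 months. Of the proneural and C cell transcription factors, Nkx2-1, which follicular cells and C cells both express, was higher by 0.43 ± 0.10, the single call of 13. Carboxypeptidase D (Cpd, 0.31 ± 0.08) was the single call of 11 prohormone processing genes, where 3.69% of all genes were called higher.

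Of 13 follicular cell genes 13 had differences above 0, with a median of 1.69, but 1 was called, where 3.69% of all genes were called higher. That gene was Lrp2, the endocytic receptor megalin, with 10.48, 11.16 and 11.40 in homozygous tumours, against 8.51, 9.49 and 10.78 in heterozygous tumours at 18 months and a difference of 1.39 ± 0.36. Duox1, the oxidase that makes hydrogen peroxide for iodination, differed by 2.19 ± 0.61 (limma adjusted p = 0.0524), and the thyrotropin receptor Tshr by 1.86 ± 0.54 (adjusted p = 0.0549). Endothelial genes had differences above 0 in 21 of 22 (median 0.55) and 0 calls by limma, the smallest p belonging to Angpt2 (-0.44 ± 0.13, adjusted p = 0.0567). The mean over the endothelial list was 8.58 to 9.34 in homozygous tumours, against 7.79 to 9.21 in heterozygous tumours at 18 months.

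Parathyroid transcripts were abundant in some specimens of both groups. The parathyroid list mean was 9.69 to 12.18 in homozygous tumours, against 9.22 to 12.11 in heterozygous tumours at 18 months. By limma 0 of its 7 genes were called, where 6.23% of all genes were. Pth, parathyroid hormone, measured 8.33, 13.93 and 14.25 in homozygous tumours, against 6.02, 11.89 and 14.21 in heterozygous tumours at 18 months, a difference of 2.39 ± 1.56 (adjusted p = 0.292). Skeletal muscle genes spanned list means of 7.00 to 11.04 in homozygous tumours, against 6.78 to 10.10 in heterozygous tumours at 18 months. With either list mean as a covariate 0 genes were called by limma, with 1882 (parathyroid) and 3768 (muscle) at an unadjusted p under 0.05, and all 708 genes kept their direction.

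Other cell types gave few calls, where 3.69% of all genes were called higher and 2.54% lower. Of the lists for pericytes and smooth muscle (15 tested), macrophages (21), T and natural killer cells (14), B and plasma cells (6), mast cells (7), red blood cells (5), Schwann cells (9) and thymus and lymph node stroma (11), 0 genes were called by limma, with heterozygous replicate 6 at 18 months standing apart in the macrophage, T cell and red cell lists. Their smallest p-values belonged to Acta2 (smooth muscle actin, adjusted p = 0.139), Adgre1 (a macrophage surface receptor, 0.122), Cd2 (a T cell surface protein, 0.139), Blk (a B cell kinase, 0.113), Cpa3 (mast cell carboxypeptidase, 0.0581), Slc4a1 (the red cell anion exchanger, 0.518), Ngfr (a Schwann cell receptor, 0.104) and the chemokine Cxcl13 (0.0532). Of 22 fibroblast and matrix genes Fbln1 (fibulin 1) was called, higher by 0.53 ± 0.13 without overlap. Of 15 airway, oesophagus and cartilage genes Dnai1, a dynein of cilia, was lower (-1.01 ± 0.28). Of the 8 sex-linked genes listed 1 was found by symbol, and it lay below the level needed for testing, so the sex of the animals was not checked.

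Ribosomal protein genes showed small differences, mostly above 0. Of 41 genes of the cytosolic ribosome 40 had differences above 0 (median 0.15) and 4 were called, 0 of them lower, where 3.69% of all genes were called higher. For 4 of the 41 the homozygous values lay wholly above the others, where 1.26% of all genes did so. Rpl7 measured 12.24, 12.33 and 12.67 in homozygous tumours, against 11.68, 11.92 and 12.17 in heterozygous tumours at 18 months, a difference of 0.45 ± 0.10. Rps19 was higher by 0.37 ± 0.08 and Rpl10a by 0.33 ± 0.07, each without overlap. Heterozygous tumours at 9 months, at 11.67, 11.84 and 11.90 for Rpl10a, lay with the homozygous ones.

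Among genes of adhesion and matrix, Ocln (occludin, of tight junctions) measured 11.07, 11.20 and 11.32 in homozygous tumours, against 9.72, 10.32 and 10.82 in heterozygous tumours at 18 months, with no overlap and a difference of 0.85 ± 0.17. With Pkp2 (plakophilin 2, of desmosomes, 0.38 ± 0.10) it made 2 calls of 29 junction genes, and 0 were lower. The shares called over all genes were 3.69% higher and 2.54% lower. Plau (urokinase) was higher by 1.05 ± 0.23, the single call of 26 proteases and inhibitors, and the laminin chain Lama5 was lower (-0.42 ± 0.11), the single call of 17 basement membrane genes. Tgfb3, a transforming growth factor, was lower (-1.02 ± 0.25), the single call of 25 chemokines and cytokines. Mx1, an interferon-induced GTPase, was higher by 1.00 ± 0.26, the single call of 25 interferon genes.

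In the remaining metabolic and regulatory lists, calls were at most 1 in each direction. Over all genes 3.69% were called higher and 2.54% lower. The circadian regulators Npas2 (higher by 1.14 ± 0.23) and Bhlhe41 moved in opposite directions. Sdha, of respiratory complex II, was higher by 0.39 ± 0.10 and Ndufa1, of complex I, lower (-0.40 ± 0.10), among 42 genes. Mccc2, of leucine breakdown, was higher by 0.35 ± 0.09 (16 tested), Klf6, an immediate early factor, by 0.55 ± 0.12 (20 tested), and the vasodilator peptide Adm, of 32 hypoxia and glycolysis genes, was lower (-0.63 ± 0.15). Of 18 cholesterol synthesis genes, 16 of MHC class II and antigen processing, 10 of monoamine synthesis and 12 peptide receptors 0 were called by limma, with the smallest adjusted p at 0.0529 (Sc5d), 0.099 (Tap1), 0.0601 (Slc6a4) and 0.0532 (Gipr).

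Few genes set homozygous tumours apart from the heterozygous tumours of both ages. In 4 of 11370 genes (0.0352%) all 6 homozygous values lay above all 12 heterozygous values, and in 0 genes below them. These were Arid4a, Cep112, Maf1 and Rgma, of which Cep112 and Rgma were called. Rgma, a co-receptor for bone morphogenetic proteins (probe set 10707935), measured 8.21, 8.40 and 8.50 in homozygous tumours, against 7.76, 7.98 and 8.01 in heterozygous tumours at 18 months. Heterozygous tumours at 9 months had 8.05, 8.12 and 8.17, so the gap to the nearest was narrow, and the difference was 0.46 ± 0.07. Cep112, a centrosomal protein (probe set 10739277), measured 8.85, 8.99 and 9.19 in homozygous tumours, against 8.36, 8.53 and 8.72 in heterozygous tumours at 18 months, and 8.67, 8.76 and 8.82 in heterozygous tumours at 9 months. Its difference was 0.44 ± 0.08.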

How the data were processed

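RNA of 18 tumours was purified (RNeasy Mini, DNase) and amplified and biotin-labelled with Nugen kits, per the labels' protocols. The authors deposited log2 values. The submitters' processing notes name RMA and, with version 1.3.0.187, Affymetrix Expression Console, and give neither role nor order. The table held 29214 probe sets, of which the platform annotation gave 15310 a single symbol, 323 several and 13581 none. Of the 15310 gene IDs 15279 matched RefSeq (GRCr8), with 0 changed symbols. For each of 14506 genes the brightest probe set by its mean over 18 arrays was kept, and 527 genes had a choice. A gene entered the test at a mean of at least 6.32, the 30th percentile. RMA evens out array distributions, so a shift of most genes one way would not be seen.

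A means model of the 12 arrays was fitted with lmFit and eBayes of limma 3.58.1 (R 4.3.3, statmod 1.5.0), two-sided, Benjamini-Hochberg adjusted over 11370 genes. The fit was tested on simulated data. Groups came from the labels, each array from its own animal. The lists were chosen with earlier results of these data known, and the lists called drawn up after the values had been seen were added later, so no list has a test. Genes named are Cdkn1b, Calca, Chga, Ret and Tg, the 12 largest called rises and falls, up to 3 called members per list in the main direction and 2 in the other (or the smallest p), and called genes outside all heterozygous values. Other named genes, namely members of the ER and added lists beyond these, regulators of the response, the large uncalled differences, Arid4a and Maf1, and the receptors Esr1, Pgr and Prlr, were chosen after their values were seen. Alternatives were another gene filter, normalization, probe set rule, variance model, covariates, all 3 groups in the fit and leaving out arrays.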

Additional observations from a re-analysis of the deposited data

Results flagged for a closer look

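In each group of 6 the gap of the highest or lowest tumour to its neighbour was divided by the group's range and compared with Dixon's critical value for 6 samples, for the named genes. It was passed in 28 of 286 pairs of gene and group. Chance gives about 1 in 20 for a single pair. The pairs share the same 12 tumours and many genes were chosen on their values, so the count is a description. Of these, 20 were in homozygous tumours and 8 in heterozygous tumours at 18 months.

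Homozygous replicate 3 made 17 of the 20. It was the highest homozygous tumour for the C cell and neuronal genes Calcb (12.10), Meg3 (11.15), Abat (11.09), Chrnb2 (10.38), Susd4 (9.86) and Unc13a (9.51), and for Ccnd3 (10.28) and Sc5d (11.44). It was the lowest for Lrp2 (10.48), Duox1 (9.31), Adgrl3 (10.75), Npas2 (10.33), Smad9 (10.24), Shmt2 (9.94), Kcnh7 (8.74), Pla2g10 (8.71) and Erbb3 (8.60). This is the tumour with the lowest follicular list mean of its group, 10.42, and the highest C cell list mean, 11.02. The other homozygous values were replicate 5 for Ddost (12.25, lowest), replicate 1 for Pdia4 (11.68, highest) and replicate 2 for Pth (8.33, lowest).

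In heterozygous tumours at 18 months, replicate 4 was the highest for Chga (13.15), the parathyroid factor Gcm2 (11.17) and Ngfr (8.29), and its parathyroid list mean, 12.11, was the highest of the group. Replicate 1 was the lowest for Tg (11.08) and the highest for Atf6b (10.57), with the lowest follicular list mean, 7.36. Replicate 6 was the highest for the red cell gene Slc4a1 (8.90) and the lowest for Pgr (9.44), and replicate 2 was the lowest for Fbln1 (7.76).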

How the results depend on the processing

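Counts are given as called, then higher, lower, and called with a difference of at least 1 in size, against 708, 419, 289 and 103. Other sets of arrays gave 3392, 1846, 1546 and 456 with all 3 groups in the fit, 4562, 2384, 2178 and 1078 without heterozygous replicates 4 and 5 at 18 months, and 5185, 2611, 2574 and 1292 without homozygous replicate 3 as well. Without 1 array in turn the counts ranged over 0 to 3572, 0 to 1892, 0 to 1680 and 0 to 746. The filter gave 307, 193, 114 and 40 when dropped and 1217, 713, 504 and 198 at the 50th percentile. Median centring gave 432, 269, 163 and 62, and quantile normalization 434 lower. Array weights gave 4983, 2681, 2302 and 880, and a variance per group 1341, 836, 505 and 254. The parathyroid or the skeletal muscle list mean as a covariate gave 0, 0, 0 and 0. Replicate numbers did not pair the tumours: the correlations of same-numbered deviations from the group means ran over -0.29 to 0.35. The replicate block gave 1214, 757, 457 and 238. The cause of these shifts was not tested. Every called gene kept its direction in each of these settings in which it was tested, and other probe set rules and a trended, robust variance kept each count within 1.5 times. Among named genes reversals were confined to 4 that were not called (Chga, Pth, Ret, Slc4a1). With the parathyroid covariate Chga was -0.19 and Pth -0.13. Without 1 array in turn Chga ran over -0.041 to 0.17, Ret over -0.036 to 0.099 and Slc4a1 over -0.44 to 0.013: Chga turned without heterozygous replicate 1 (-0.0058) or homozygous replicate 5, Ret without heterozygous replicate 2 (-0.0025) or 3 or homozygous replicate 2 (-0.0089), and Slc4a1 without heterozygous replicate 6. Signal over background is not given in the deposited values, so no limit of detection is stated.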

Other observations

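Genes of forkhead O factors and insulin signalling were looked at after their values had been seen. Of 25 tested 7 were called higher and 1 lower, at a median of 0.02, where 3.69% of all genes were called higher and 2.54% lower. Foxo3 measured 11.17, 11.36 and 11.54 in homozygous tumours, against 10.56, 10.93 and 11.05 in heterozygous tumours at 18 months, without overlap, a difference of 0.49 ± 0.10. Foxo1 (0.62 ± 0.17) and Foxo4 (0.40 ± 0.09), further forkhead factors that Akt excludes from the nucleus, were also higher, with overlap. The insulin receptor substrate Irs1 (0.38 ± 0.09) and the phosphoinositide 3-kinase regulatory subunit Pik3r1 (0.75 ± 0.19) were higher, while Pik3r3, another regulatory subunit, was lower (-0.55 ± 0.12) without overlap. In each of these genes homozygous replicate 3 was the tumour of its group nearest the other group. Heterozygous replicates 4 and 5 at 18 months were the nearest of theirs. The part of follicular content in these differences was not tested.

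Receptors of reproductive hormones were chosen in the same way. Prlr, the prolactin receptor, measured 7.92, 8.55 and 8.93 in homozygous tumours, against 5.82, 6.80 and 7.88 in heterozygous tumours at 18 months, a difference of 1.56 ± 0.33 without overlap. The gap was narrow, from 7.92 in homozygous replicate 3 to 7.88 and 7.85 in heterozygous replicates 4 and 5. The first had the lowest follicular list mean of its group and the others the highest of theirs. The part of follicular content was not tested. Pgr, the progesterone receptor, was higher by 0.35 ± 0.09 and Esr1, the estrogen receptor, by 0.52 ± 0.13. Heterozygous tumours at 9 months had 8.60, 8.69 and 9.04 for Prlr and lay with the homozygous ones. The nicotinic and kainate list and the Adgr list were also drawn up after the values had been seen. For comparison, 2.54% of all genes were called lower and 3.69% higher. Of 10 nicotinic and kainate receptor subunits tested 4 were called lower and 1 higher. The rise was Chrnb3, which measured 8.29, 8.84 and 9.02 in homozygous tumours, against 6.39, 7.74 and 8.25 in heterozygous tumours at 18 months; heterozygous tumours at 9 months were higher than either, at 9.49, 9.55 and 9.60. Of 13 adhesion receptors of the Adgr family 4 were called lower, Adgrg7 and the 3 brain angiogenesis inhibitors Adgrb1 (-0.63 ± 0.14), Adgrb2 (-0.95 ± 0.23) and Adgrb3, and 1 higher, Adgrl3.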
